A study of Rattus norvegicus with 2 samples.

Results

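The genes described here are 9 genes that oligodendrocyte precursor cells (OPCs) switch on as they commit to becoming oligodendrocytes: Gpr17, Gpr37, Enpp2, Enpp6, Itpr2, Fyn, Bcas1, Tspan2 and Ninj2. They were chosen by name, and each matched exactly 1 of the 17202 genes in the deposited table by its symbol. RNA was sequenced in bulk from cultured primary wild-type rat brain OPCs. The treated culture had received amyloid-beta (Aβ, the peptide of Alzheimer plaques) at 1 µM for 2 days, and its control is labelled with the solvent DMSO. The titles of the samples share a prefix, P1, with no explanation, the labels speak of developing animals in one place and of adult OPCs in another, and strain, sex and number of donor rats are not given. Each condition gave 1 library, so no difference below has a replicate check, no test was run, and every interval covers counting error only.

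OPCs divide, carry the PDGF receptor Pdgfra, and on leaving the cycle pass through a short committed stage before they become newly formed and then myelinating oligodendrocytes. Gpr17 and Bcas1 are classic marks of that passage, and in the mouse Itpr2 and Enpp6 mark committed and newly formed cells. Several of these genes also act in it: FYN is a kinase that drives process outgrowth and local synthesis of myelin basic protein, and GPR17 is a brake that must be shut off before cells mature. In a bulk culture such as this, fewer cells of a type and less RNA per cell cannot be told apart.

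Of the 9 genes, 6 were well expressed in both libraries and 3 were near the lower limit of detection. Fyn, Bcas1, Gpr17, Tspan2, Enpp2 and Itpr2 stood between 30.3 and 273 TPM (a level per transcript length, with an equal total for both libraries). Ninj2, Gpr37 and Enpp6 stood between 0.44 and 2.19 TPM. Between the libraries the 6 well-expressed genes differed little. The furthest of them was Gpr17, at 1.17 times its DMSO level in the Aβ library, followed by Itpr2 at 1.09 and Bcas1 at 1.05, and the other 3 had ratios from 0.952 to 0.976. The larger ratios, those of Gpr37 and Ninj2, rested on 29 counts or fewer in a library.

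Upstream sequence is shown for a pair of the abundant genes, Fyn and Tspan2, and for the 3 genes near the limit, Gpr37, Enpp6 and Ninj2, to set both kinds of gene side by side; the choice was made with their levels known. Each is the 250 bases before a transcript start in the RefSeq table (build GRCr8, not the build of the deposited values), written 5′ to 3′ on the gene's strand. RefSeq may place other starts of the same gene elsewhere. Capitals mark matches, on either strand, to any of 6 short motifs: the GC box spelled GGGCGG, the CCAAT box with those letters, the TATA box spelled TATAAA, a SOX-type motif spelled ACAANG, an E-box spelled CANCTG and a TCF/LEF-type motif spelled TCAAAG. Adjoining and overlapping matches run together. The windows are chr20:44322414-44322663 on the plus strand for Fyn, chr2:192866030-192866279 on the plus strand for Tspan2, chr4:55126421-55126670 on the minus strand for Gpr37, chr16:52026729-52026978 on the minus strand for Enpp6 and chr4:154978551-154978800 on the plus strand for Ninj2.
Fyn: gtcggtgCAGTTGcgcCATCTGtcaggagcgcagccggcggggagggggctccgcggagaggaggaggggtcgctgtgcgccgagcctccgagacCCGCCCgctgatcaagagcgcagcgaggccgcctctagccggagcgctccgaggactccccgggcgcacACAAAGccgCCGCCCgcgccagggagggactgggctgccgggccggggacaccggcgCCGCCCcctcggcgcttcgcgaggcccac
Tspan2: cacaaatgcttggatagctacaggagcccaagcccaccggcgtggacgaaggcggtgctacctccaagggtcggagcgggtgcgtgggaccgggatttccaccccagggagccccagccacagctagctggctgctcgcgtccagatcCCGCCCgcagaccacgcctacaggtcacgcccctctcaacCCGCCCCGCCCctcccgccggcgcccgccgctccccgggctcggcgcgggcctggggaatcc
Gpr37: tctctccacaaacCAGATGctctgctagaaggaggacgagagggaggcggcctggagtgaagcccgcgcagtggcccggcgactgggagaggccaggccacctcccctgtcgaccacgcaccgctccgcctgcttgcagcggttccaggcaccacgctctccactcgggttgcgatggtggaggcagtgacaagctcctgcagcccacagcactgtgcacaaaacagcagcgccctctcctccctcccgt
Enpp6: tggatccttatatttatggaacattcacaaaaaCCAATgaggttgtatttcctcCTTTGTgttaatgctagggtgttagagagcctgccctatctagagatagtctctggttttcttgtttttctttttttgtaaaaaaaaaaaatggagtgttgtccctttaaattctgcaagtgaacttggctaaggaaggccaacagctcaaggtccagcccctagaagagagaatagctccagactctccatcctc
Ninj2: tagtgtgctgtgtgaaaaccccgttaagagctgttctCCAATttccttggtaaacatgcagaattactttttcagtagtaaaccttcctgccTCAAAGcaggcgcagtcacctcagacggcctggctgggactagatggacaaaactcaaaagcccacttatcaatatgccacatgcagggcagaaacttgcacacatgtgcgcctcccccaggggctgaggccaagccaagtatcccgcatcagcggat

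GC content did not separate the abundant from the scarce genes. Among the abundant genes the windows of Fyn (76.8% G and C, 34 CpG dinucleotides), Itpr2 (76.0%, 25) and Tspan2 (72.0%, 25) were GC-rich, and that of Gpr17 (53.2%, 5) was not. Among the scarce genes the window of Gpr37 (66.0%, 16) was richer than those of Ninj2 (50.8%, 6) and Enpp6 (40.0%, 0). The medians over 33469 upstream windows of the same length were 51.2% and 5. RefSeq windows were matched for 7 of the 9 genes, all but Bcas1 and Enpp2. GC boxes were found in 3 of the 7 windows (Fyn, Tspan2 and Itpr2) and in 30.47% of all windows. SOX-type matches were found in 3 (Fyn, Gpr17 and Enpp6) against 36.94%, E-boxes in 3 (Fyn, Itpr2 and Gpr37) against 43.31%, and CCAAT boxes in 3 (Itpr2, Enpp6 and Ninj2) against 34.02%. A TCF/LEF-type match was found in 1 (Ninj2) against 13.91% of all windows, and a TATA box in 0 against 12.93%. A match describes these letters only.

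The depth was 15117102 estimated counts with Aβ and 15019416 with DMSO. All 21 OPC markers found in the table passed 1 CPM (counts scaled to library size, with library sizes adjusted by the TMM method) in at least 1 library, the level from which a gene was taken as measured. Pdgfra stood at 228 TPM with Aβ and 206 TPM with DMSO, and the lineage transcription factor Olig2 at 216 and 209 TPM. Transcripts of other cell types were present too. Astrocyte markers, 11 of 12 measured and 0 at zero, summed to 2343 TPM with Aβ and 2225 TPM with DMSO, with the astrocyte filament gene Gfap at 839 and 793 TPM. Neuron markers, 12 of 12 measured, summed to 872 and 838 TPM. That sum was unevenly spread, with Tubb3 at 372 and 353 TPM, Rbfox3 at 6.39 and 6.28 TPM and Slc17a7 at 4.58 and 5.76 TPM. Schwann cell markers summed to 354 and 345 TPM, nearly all from Sox2 and Pmp22. Microglia markers (5 of 12 measured) summed to 14.8 TPM with Aβ and 17.1 TPM with DMSO, fibroblast and pericyte markers (3 of 7) to 6.27 and 5.34 TPM, and endothelial markers (4 of 6) to 2.45 and 2.12 TPM. Lum and Rgs5 of the fibroblast and pericyte list were at 0 in the Aβ library and had 2 and 1 counts in the DMSO library. The part of these cells in the values below was not tested.

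**Figure D1:**
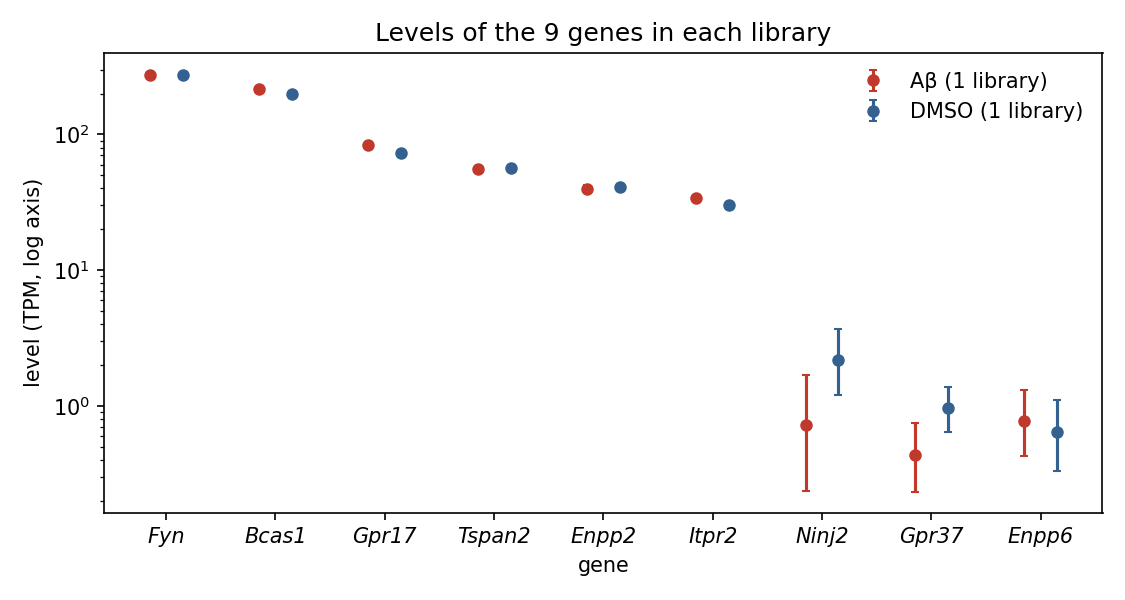
Level of each gene (TPM, log axis) in the Aβ library (red, left of each pair) and in the DMSO library (blue, right), with 95% counting intervals, which are narrower than the points for the abundant genes. The first 6 genes lie between 30.3 and 273 TPM and keep one order in both libraries, and the last 3 lie at 2.19 TPM or below.

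The order of levels was Fyn, Bcas1, Gpr17, Tspan2, Enpp2, Itpr2 in both libraries. Counting intervals of neighbours in that order did not overlap: the closest pair, Enpp2 and Itpr2, stood at 37.6 to 42.5 TPM and 33.0 to 35.2 TPM with Aβ, and at 38.5 to 43.4 TPM and 29.3 to 31.3 TPM with DMSO. The order below them was not settled by the counts. Enpp6 (0.78 TPM), Ninj2 (0.73) and Gpr37 (0.44) had overlapping intervals with Aβ, and so did Ninj2 (2.19) and Gpr37 (0.97), and Gpr37 and Enpp6 (0.64), with DMSO. Fyn was among the most abundant transcripts of the culture, at rank 502 of 17202 genes with Aβ and 500 with DMSO. Gpr37 ranked 13980 with Aβ and 13047 with DMSO.

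Of the receptors, Gpr17, which responds in some assays to uracil nucleotides and cysteinyl leukotrienes, had 2325 counts with Aβ and 1965 with DMSO, or 84.0 and 73.0 TPM. Its ratio, Aβ over DMSO, was 1.17 (95% counting interval 1.10 to 1.25). This is the furthest ratio of the 6 abundant genes. Its log2 ratio of 0.23 ranked 10 from the top among the 2528 measured genes with a mean level of at least 100 CPM, and the central 95% of these genes ran from -0.13 to 0.14. On the TPM scale, for which no rank was taken, it was 0.201, beside a median of 0.037 over all measured genes. In RefSeq the span of Gpr17 overlaps that of Lims2, an adaptor gene of cell adhesion with 90 counts under Aβ and 91 under DMSO, and whether the authors counted by strand is not stated in any source used here. Within each library Gpr17 stood at 0.715 of the TPM of the lineage factor Sox10 with Aβ and 0.636 with DMSO.

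Gpr37, an orphan receptor that in the mouse restrains the maturation of oligodendrocytes, had 13 counts with Aβ (counting interval 6.92 to 22.2) and 29 with DMSO (19.4 to 41.6), or 0.44 and 0.97 TPM. Its ratio was 0.445 (0.212 to 0.883), the lowest of the measured genes of the group. It passed the level of measurement through the DMSO library only, at 1.93 CPM against 0.859 CPM with Aβ. Its log2 ratio ranked 49 from the bottom among the 3156 measured genes with a mean level of 1 to 10 CPM, within the lowest 1.55%. Both of its levels lie near or below the low end of that band, where counts are fewest. The rank therefore does not compare it with genes of its own depth.

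The relatives and partners of these receptors named here had ratios from 0.772 to 1.12. Gpr37l1, the closest relative of Gpr37 and an astrocyte-enriched gene, had 1194 counts with Aβ and 1097 with DMSO (levels of 57.4 and 51.8 TPM, ratio 1.08, 0.994 to 1.17). Prosaposin (Psap), a proposed ligand of both, stood at 555 TPM with Aβ and 505 TPM with DMSO (ratio 1.07, 1.04 to 1.10). Of the 5 genes of that list in the table, 4 had a ratio above 1, and Rapgef4, a cyclic AMP sensor, stood at 0.772 (0.578 to 1.03). Among receptors and signalling partners near GPR17, 11 of 17 were measured, 4 above 1 and 7 below (median log2 ratio -0.0052). The most abundant was Gnai2, an inhibitory G protein of the type that GPR17 couples to, at 403 TPM with Aβ and 396 TPM with DMSO (ratio 0.989, 0.959 to 1.02). The furthest, here and below among genes that reached 5 CPM in either library, were the nucleotide receptor P2ry4 at 0.823 (0.608 to 1.11), the arrestin Arrb2 at 0.869 (0.750 to 1.01) and Gnaq at 1.12 (0.940 to 1.33).

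Of the secreted and surface phosphodiesterases, Enpp2 encodes autotaxin, which makes the signalling lipid lysophosphatidic acid and is released by oligodendrocytes as they mature. It had 1041 counts with Aβ and 1085 with DMSO, or 40.0 and 40.9 TPM. Its ratio was 0.952 (0.873 to 1.04), an interval that holds 1 and lies wholly within 1.5-fold. Enpp6, a choline-specific phosphodiesterase, had 14 counts with Aβ (counting interval 7.65 to 23.5) and an estimated 11.7 with DMSO, the only fractional value among the 9 genes. At 0.78 and 0.64 TPM and below 1 CPM in both libraries it was not taken as measured. Its ratio of 1.16 had an interval from 0.497 to 2.74, so the counts did not exclude a 2-fold difference in either direction.

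Of 17 other genes of the lysophosphatidic acid pathway, 14 were measured, 8 above 1 and 6 below (median log2 ratio 0.061). The furthest were the G protein gene Gna13 at 1.24 (1.04 to 1.48), the receptor Lpar4 at 1.15 (0.969 to 1.36) and Enpp4 at 1.13 (0.954 to 1.35). All 12 genes of glycerophosphocholine and choline handling were measured, 6 above 1 and 6 below. The choline transporter Slc44a1 was the most abundant of them, at 183 TPM with Aβ and 171 TPM with DMSO (ratio 1.02, 0.987 to 1.05). The phosphodiesterase Gpcpd1 stood at 0.873 (0.787 to 0.969), Cept1, which completes phosphatidylcholine synthesis, at 0.877 (0.778 to 0.989) and the lysophospholipase Pnpla6 at 1.13 (1.02 to 1.25).

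Itpr2, a calcium release channel of the endoplasmic reticulum opened by inositol trisphosphate, had 3751 counts with Aβ and 3407 with DMSO, or 34.1 and 30.3 TPM. Its ratio was 1.09 (1.04 to 1.14). Its log2 ratio of 0.13 ranked 84 from the top among the 2528 genes at a mean of 100 CPM or more, within the highest 3.32% and just inside the range of the central 95%. Of 15 other IP3 receptor and store calcium genes in the table, 13 were measured, 6 above 1 and 7 below (median log2 ratio -0.0033). The furthest were Plcb1, a phospholipase that makes inositol trisphosphate, at 1.23 (1.01 to 1.504), the store-operated channel Orai1 at 0.776 (0.582 to 1.03) and Orai2 at 1.14 (0.949 to 1.38). The calcium pump Atp2a2, the most abundant, stood at 123 TPM with Aβ and 119 TPM with DMSO.

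The kinase gene Fyn had 6799 counts with Aβ and 6911 with DMSO, with nearly equal TPM, 272.6 and 272.2. Its ratio was 0.976 (0.944 to 1.01), and on the TPM scale the sign of its log2 ratio turned to 0.0016, so no direction is given for it. Among 19 Src kinases and partners of FYN, all measured, 8 lay above 1 and 11 below (median log2 ratio -0.015). The most abundant was Hnrnpa2b1, an RNA-binding protein that holds Mbp mRNA silent in transport until FYN acts on it, at 1380 TPM with Aβ and 1261 TPM with DMSO (ratio 1.07, 1.04 to 1.10). Csk, the kinase that switches Src kinases off, stood at 0.901 (0.833 to 0.974), Cdk5, a kinase of process outgrowth, at 1.15 (1.02 to 1.29), and Cdk5r1, its activator, at 1.11 (0.973 to 1.27).

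Bcas1, a cytoplasmic protein of cells that are beginning to myelinate, had 5523 counts with Aβ and 5232 with DMSO, or 215 and 199 TPM. Its ratio was 1.05 (1.01 to 1.09), which ranked 380 from the top among the 2528 genes at its level, within the highest 15%. Tspan2, a tetraspanin of the oligodendrocyte membrane, had 2063 counts with Aβ and 2146 with DMSO, or 55.3 and 56.4 TPM, with a ratio of 0.954 (0.897 to 1.01). Ninj2, an adhesion protein named for its induction after nerve injury, had 5 counts with Aβ (counting interval 1.62 to 11.7) and 14 with DMSO (7.65 to 23.5). At 0.73 and 2.19 TPM and below 1 CPM in both libraries it was not taken as measured, and its ratio of 0.354 had an interval from 0.0999 to 1.04 that holds 1.

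Of 20 genes in the list of other tetraspanins with Ninj1, 19 were measured, 11 above 1 and 8 below (median log2 ratio 0.0065). Cd63, the most abundant, stood at 1017 TPM with Aβ and 971 TPM with DMSO (ratio 1.03, 0.992 to 1.07), and Cd81 at 822 and 863 TPM (0.930, 0.905 to 0.956). Tspan18 stood at a ratio of 1.46 (1.08 to 1.97) from 113 and 77 counts, and Cd151 at 1.33 (1.11 to 1.58) from fractional counts.

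**Figure D2:**
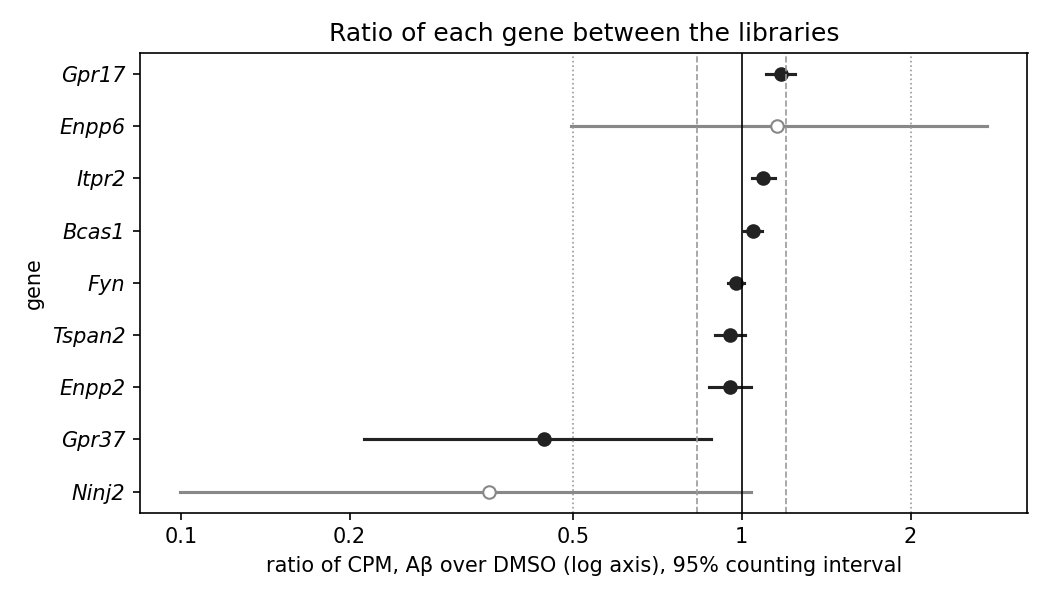
Ratio of CPM, Aβ over DMSO, for each gene (log axis) with its 95% counting interval; open grey points are genes below 1 CPM in both libraries, dashed lines mark 1.2-fold and dotted lines 2-fold. Gpr17, Itpr2 and Bcas1 have intervals wholly above 1, with ratios of 1.17, 1.09 and 1.05, and Gpr37 has one wholly below 1 at 0.445. Gpr37 reached 1 CPM in the DMSO library only.

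Over all genes, the same rules of size gave the following background. Of the 7 measured genes of the group, 0 were past 2-fold with an interval leaving out 1 in either direction, beside 0.267% of all 13505 measured genes higher and 0.407% lower. Gpr37 has a ratio below 0.5 but a log2 ratio of -0.84 once 0.5 CPM is added to each library, the scale on which the 2-fold rule was applied. None of the 7 was past 1.2-fold higher, beside 6.41% of all genes, and 1 (Gpr37) was past 1.2-fold lower, beside 6.71%. Gpr37 is among the 7 through the DMSO library only, at 1.93 CPM against 0.859 CPM with Aβ. The filter thus favours a lower value for it, and its calls as lower here are no support for a difference. With 5 CPM added to each library, the log2 ratio of Gpr37 was -0.24, within 1.2-fold. In the band that holds Gpr37 near its low end, from 1 to 10 CPM, 20.8% of genes were past 1.2-fold lower and 4.85% had an interval wholly below 1. At 100 CPM or more, 0.158% of genes were past 1.2-fold higher and 0.0791% lower, and 0 of the 5 genes of the group at that level were. The counting interval lay wholly above 1 for 3 of the 7 (Gpr17, Itpr2 and Bcas1), beside 6.49% of all measured genes, and wholly below 1 for 1 (Gpr37), beside 6.88%. Deep counts make intervals narrow, and among genes at 100 CPM or more the shares were 12.1% above and 12.7% below, with 3 and 0 of those 5 genes. Ratios above 1 numbered 3 and ratios below 1 numbered 4, beside 49.7% and 50.3% of all measured genes.

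The median log2 ratio of the 7 measured genes was -0.035, beside -0.00078 over all measured genes. The group median is the value of Fyn, for which no direction is given. With a filter of 10 CPM, which drops Gpr37, the group median was 0.015. On the TPM scale it was 0.0016, with 4 genes above 1 and 3 below, beside 0.037 over all measured genes. The summed level of all 9 was 703 TPM with Aβ and 676 TPM with DMSO, and Fyn and Bcas1 made up most of it in both libraries.

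**Figure D3:**
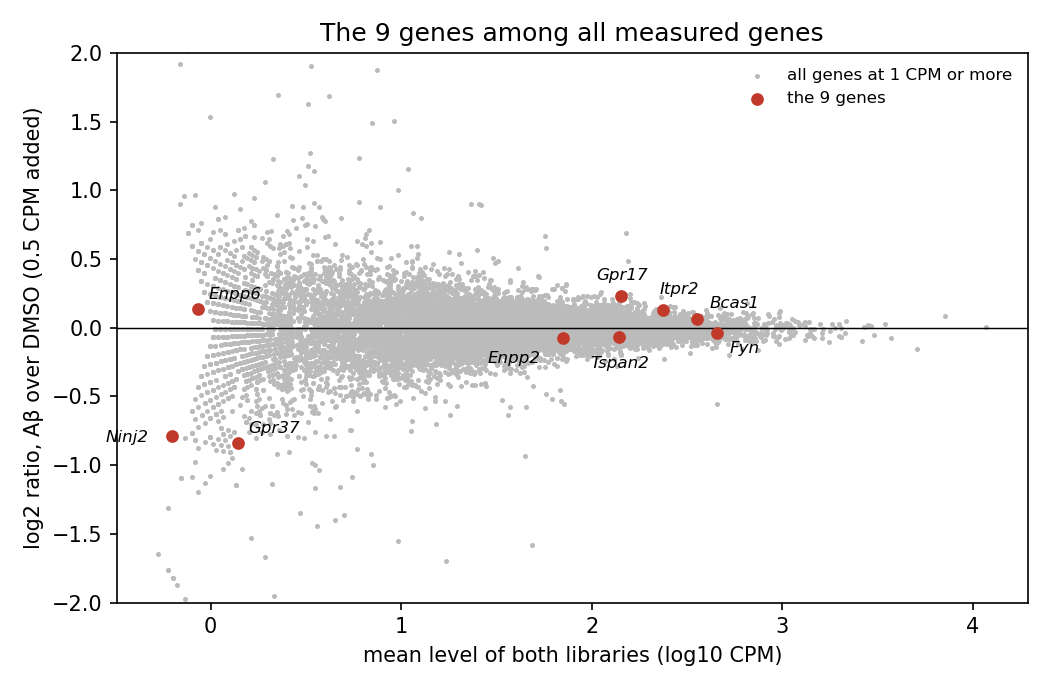
Log2 ratio, Aβ over DMSO, with 0.5 CPM added, against the mean level of both libraries (log10 CPM) for all genes at 1 CPM or more (grey) and the 9 genes (red); 39 measured genes lie beyond the vertical axis. Gpr17 stands at the upper edge of the genes of its level, at 0.23, while Gpr37 and Ninj2 lie where low counts spread all genes widely.

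Beside neighbouring stages of the lineage, the group was placed as follows. OPC markers, the stage before, had 14 genes above 1 and 7 below (median log2 ratio 0.034), at summed levels of 3084 TPM with Aβ and 2988 TPM with DMSO. Pdgfra, with fractional counts, had a ratio of 1.08 (1.05 to 1.10), and among the furthest at 5 CPM or more were Cacng4 at 1.16 (1.01 to 1.34), Xylt1 at 1.16 (1.09 to 1.24) and Emid1 at 0.754 (0.552 to 1.03). Of 21 other genes of committed precursors and newly formed oligodendrocytes, 19 were measured, 11 above 1 and 8 below (median log2 ratio 0.038). They summed to 666 TPM with Aβ and 638 TPM with DMSO.

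In that last list the sirtuin Sirt2 was the most abundant, at 237 TPM with Aβ and 229 TPM with DMSO. Tcf7l2, a transcription factor that newly formed oligodendrocytes switch on, had 611 counts with Aβ and 706 with DMSO (levels of 20.5 and 23.2 TPM, ratio 0.858, 0.769 to 0.958). The small GTPase gene Rras2 stood at 1.17 (1.01 to 1.37), the sialidase Neu4 at 0.824 (0.652 to 1.04) with fractional counts, and Bmp4, a growth factor of committed precursors, at 1.17 (0.790 to 1.73) from 60 and 51 counts. Rras2 was named for the size of its ratio. The list as a whole lay on both sides of 1, as did all measured genes.

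Mature oligodendrocyte and myelin genes were low apart from Cnp, an enzyme already made in precursors, which stood at 524 TPM with Aβ and 487 TPM with DMSO. Of the 20 found, 14 were measured, 7 above 1 and 7 below (median log2 ratio -0.0013). Mbp stood at 20.9 TPM with Aβ and 23.6 TPM with DMSO (ratio 0.901, 0.780 to 1.04). Myrf, the transcription factor that starts myelin gene expression, had a ratio of 0.932 (0.841 to 1.03), and the furthest were the lipid hydroxylase Fa2h at 1.22 (0.945 to 1.58), the myelin surface gene Mog at 1.14 (0.989 to 1.31) and the tight junction gene Cldn11 at 0.887 (0.686 to 1.15). Mag, an adhesion protein of the inner myelin layer, stood at 1.36 (0.806 to 2.32) from 37 and 27 counts, and Aspa, an enzyme of acetate supply for myelin lipids named after its value was seen, lay further from 1 the other way at 0.661 (0.432 to 1.003) from 40 and 60 counts. Mobp and Mal, of compact myelin, had 2 counts each in the treated culture, and 1 and 2 in its control. Gpr17 was 4.02 times as abundant as Mbp in the Aβ library and 3.09 times in the DMSO library, and Bcas1 10.3 and 8.44 times. These quotients also carry the lower Mbp value with Aβ, and no interval was computed for them. Relative to Olig2, Gpr17 stood at 0.389 with Aβ and 0.350 with DMSO, and Bcas1 at 0.996 and 0.955. Both libraries paired abundant Fyn, Bcas1 and Gpr17 with scarce Enpp6, Mobp and Mal.

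**Figure D4:**
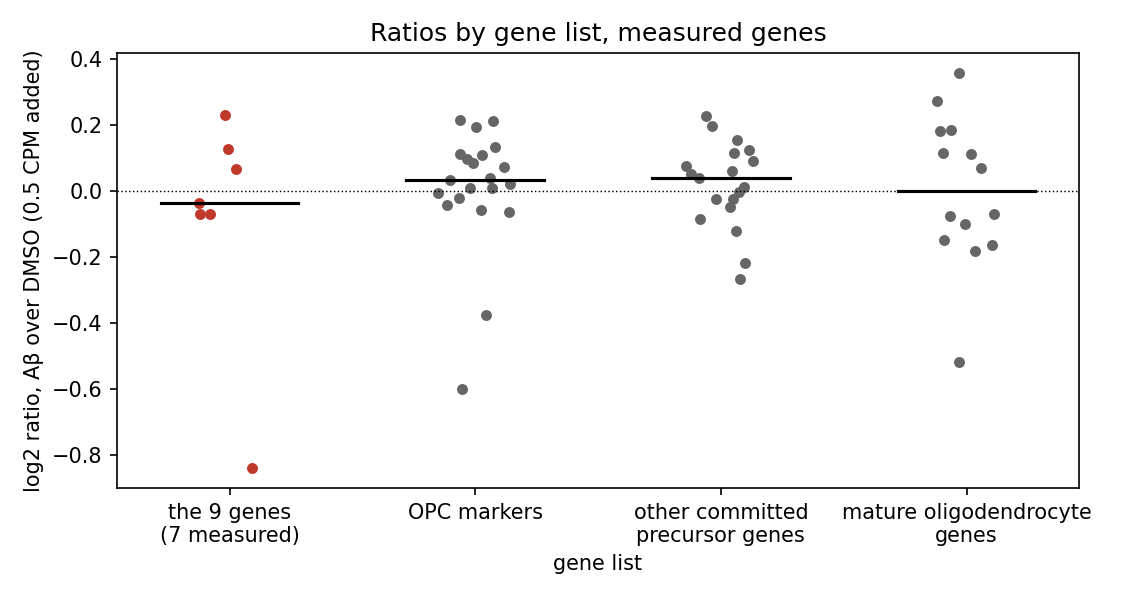
Log2 ratio, Aβ over DMSO, with 0.5 CPM added, of each measured gene (points) in 4 lists, with the median as a line; points are spread sideways for visibility. The medians lie between -0.035 and 0.038, and the lowest point of the group described here is Gpr37 at -0.84, measured through the DMSO library only.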

How the data were processed

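Bulk RNA of 2 libraries was compared. Libraries were built with a BGI mRNA kit, per the labels' protocols; Bowtie2 and the build Rnor_6.0 are named per the submitters' processing notes, and no source used here states the quantifier, annotation or strand use. The authors deposited estimated counts (expected counts, fractional for 11.9% of genes in each library), TPM values, FPKM values and a normalized signal column that is the count rounded up and divided by 1 constant per library, per the file headers and values; it was not used further.

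Counts were rounded to whole numbers and scaled with TMM (edgeR 4.0.16, R 4.3.3). Log2 ratios add 0.5 CPM, which understates differences of low genes. Ratios without it carry exact 95% Clopper-Pearson intervals for the Aβ share of a gene's counts (scipy 1.17.1). The 13505 genes reaching 1 CPM in either library were taken as measured. The interval code was tested on simulated data. Alternatives were library totals, DESeq2 1.42.0 size factors, TPM, FPKM, fractional counts, pseudocounts and filters.

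The genes, the lists and the rules were chosen with earlier results of these data known. The rule named all 9 genes, defining stage markers, and from each of the 16 other lists the most abundant gene and up to 3 genes at 5 CPM or more with the largest log2 ratio, of which only those bearing on the text are given. Lum, Rgs5, Mobp, Mal and Lims2 are named outside it, as values, and so is Aspa, named after its value was seen. Not every gene under the rule is reported.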

Additional observations from a re-analysis of the deposited data

How the results depend on the processing

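All 63 values of single genes under the alternatives lay within their counting intervals, and 8 of the 9 kept 1 sign. The ranges were wide for the scarce genes, with log2 ratios from -1.17 with no pseudocount to -0.243 with pseudocount 5 for Gpr37 and from -1.497 to -0.154 for Ninj2. With pseudocount 5 the difference of Gpr37 lies within 1.2-fold; the 1.2-fold rule itself was applied to ratios without a pseudocount. The exception was Fyn, whose log2 ratio ran from -0.038 to 0.0016, above 0 only with TPM, which moved the median of all genes to 0.037. The group median, which was the value of Fyn, was 0.0016 with TPM, with 4 genes above 1 and 3 below. For Gpr17 the log2 ratio ran from 0.161 with FPKM to 0.237 with DESeq2 size factors, and its rank was taken on the main scale only. Of 72 summary values, 62 stayed close to the main one. With the filter of 10 CPM the median of the group was 0.015, 4 mature oligodendrocyte genes lay above 1, 9 genes were past 2-fold higher and 15 lower, and 220 were past 1.2-fold higher and 211 lower. With no filter 2300 genes were past 1.2-fold higher and 2396 lower. Among genes with whole counts, 2 were past 2-fold higher and 10 lower. Each of these filters changes which genes are counted. No library could be left out with 1 per group. No paired analysis was possible because each group has 1 library. Depth limits Gpr37, Ninj2 and Enpp6, with 29 counts or fewer per library.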
